A study of Mus musculus with 8 samples.

Results

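The luminal mammary transcription factors and hormone receptors described here are 10 genes, Elf5, Elf3, Ehf, Gata3, Foxa1, Esr1, Pgr, Prlr, Stat5a and Tfap2c. They were chosen by gene name from the 18883 named genes of the array, and every probe with their RefSeq accession was taken, which gave 15 of 41174 probes. Of these, 14 were bright enough in the sample channel to be tested, among 33564 probes tested in all, and 12 were well above background on each of the 8 arrays.

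Gene expression was measured in cultured mammary tumour cells of FVB mice with the polyoma middle T (PyMT) tumour model. The groups were Snd1 knockdown (LKO1-shSnd1, 3 arrays), its empty vector control (LKO1, 3 arrays), W391D Mtdh rescue (1 array) and wild-type Mtdh rescue (1 array). Knockdown and vector cells came from 1 line, WTA, of wild-type genotype, and were selected with puromycin after infection. Both rescues came from 1 line, KO2, of MTDH-KO genotype, which was given Mtdh or its W391D form from a lentivirus with GFP (LmPGK, ires2-GFP) and sorted for GFP. All 8 samples had received 50 uM camptothecin (CPT), a topoisomerase I poison, for 36 h, and no untreated cells were analysed here. The control was the vector without a hairpin, and each genotype is represented by a single line, so effects of the hairpin itself or of a line cannot be told apart from those of Snd1 or Mtdh. Each sample, in Cy5, shared its array with the same Cy3 reference RNA, a mix of 11 mouse cell lines, and dyes were not swapped. A level below is the log2 ratio of Cy5 to Cy3, which compares 1 probe between arrays and not 1 gene with another.

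In the mammary gland, luminal cells line the ducts and form the milk-secreting alveoli. Gata3 and Foxa1 are transcription factors of luminal identity. Foxa1 opens chromatin for the oestrogen receptor, encoded by Esr1, which in turn drives Pgr, the progesterone receptor. Prolactin acts through its receptor Prlr and the kinase JAK2 on Stat5a, and Elf5, an ETS factor, drives alveolar differentiation downstream of that signal. Elf3 and Ehf are other epithelial ETS factors, and Tfap2c is an AP-2 factor expressed in luminal cells.

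The median Cy5 signal of an array was 158 to 363 and its median Cy5 background 61 to 72, and 78.02% to 88.47% of the 43379 spots that are no controls exceeded it clearly in Cy5. Precision is limited by the small number of arrays. Since the labels leave unsaid whether replicates were separate cultures, the p-values rest on a spread between arrays that may be technical. Snd1, the hairpin's target, had log2 ratios of -3.23, -3.33 and -3.44 on the knockdown arrays, against -2.49, -2.40 and -2.43 on the vector arrays, and was 1.86-fold lower in the knockdown (adjusted p = 8.66e-06). Keratins and adhesion genes of luminal epithelium were detected: 14 luminal markers had a mean log2 ratio of 1.64 to 1.75 on the knockdown arrays, against 1.72 to 1.82 on the vector arrays. Of these 14 markers 7 fell, among them Krt8 (log2 difference -0.86) and Epcam (-0.73). The 4 that rose were Prom1 (1.04, and 0.53 on its other probe), Krt19 (0.89), Cd24a (0.44) and Cldn4 (0.34). Both Prom1 probes were near background. In Cy5 each was well above it on 2 of 3 vector arrays, and in Cy3 on 0 and 3 of the 8 arrays.

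In Snd1 knockdown cells the luminal factors moved in both directions, with more probes lower than higher. Elf5 fell 4.07-fold, and Tfap2c, Stat5a and probes of Ehf, Esr1 and Prlr fell by smaller amounts, while Elf3 rose 1.61-fold. Of the 14 probes tested with limma, 8 were lower, 2 higher and 4 not called at an adjusted p under 0.05. That is 71.4% called, and 45.7% of all probes tested were called, 23.6% as higher and 22.1% as lower. The median difference, knockdown minus vector, was -0.27 over the 14 probes and 0.02 over all probes tested. The members were chosen with earlier results of these data known, so neither comparison tests them as a group. Knockdown and vector values were fully separate for 11 of the 14 probes, 2 higher and 9 lower, and for 53.9% of all probes, 28.4% higher and 25.5% lower. Ehf and Prlr count with 3 probes each. Counted once a gene, by its brightest probe, 4 of 9 genes fell and 2 rose, and among the 17229 named genes tested 25.6% fell and 26% rose. That count depends on the probe chosen. It takes Prlr as a rise and Ehf as not called, although 2 other probes of each fell. Brightest means the highest mean log2 signal of Cy5 and Cy3 over the knockdown and vector arrays. In RNA from whole cultures, fewer cells that express a gene and less RNA of it per cell cannot be told apart.

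**Figure D1:**
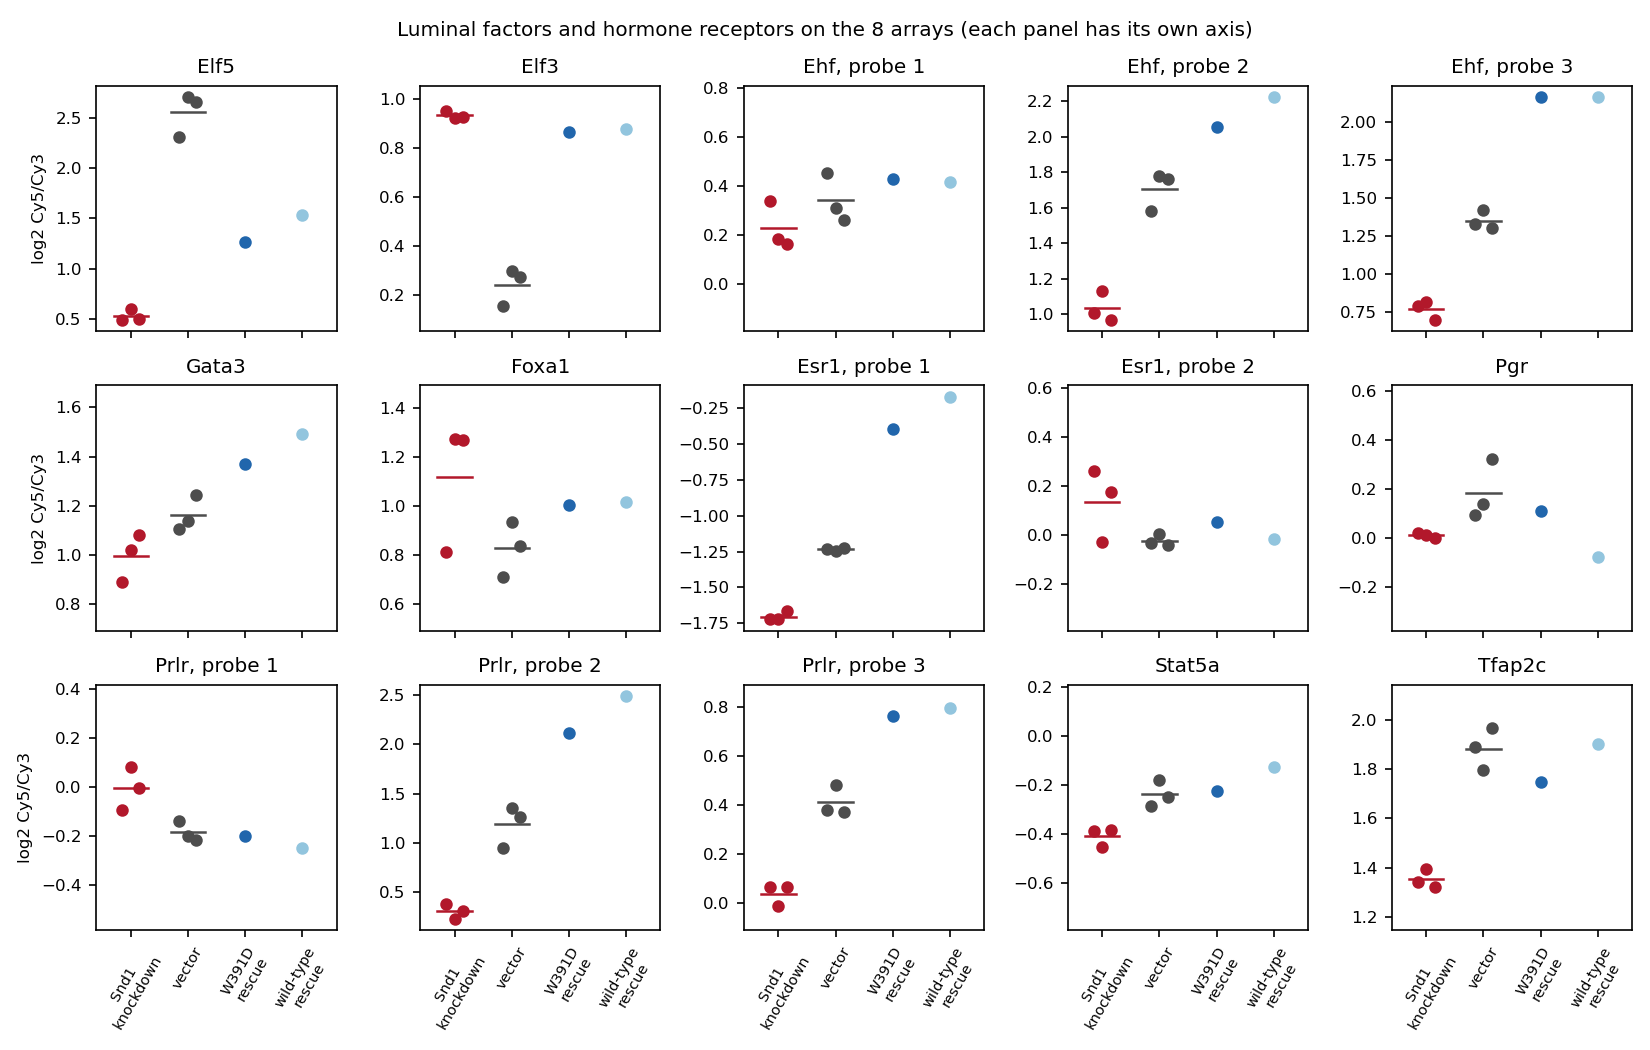
Log2 Cy5/Cy3 of each of the 15 member probes on the 8 arrays; 1 point is 1 array, bars are the means of the 3 knockdown and the 3 vector arrays, and each panel has its own axis. Elf5 is lowest on the 3 knockdown arrays (0.49 to 0.60) and highest on the 3 vector arrays (2.31 to 2.70), and Elf3 has the opposite order of these groups.

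Elf5 was the member with the largest difference. Its log2 ratio was 0.49, 0.60 and 0.50 on the knockdown arrays, against 2.31, 2.70 and 2.66 on the vector arrays. The 3 knockdown values lay close together and far below each vector value. The difference was -2.03 ± 0.10 (SE, n = 3 each; 95% interval -2.26 to -1.80; adjusted p = 1.36e-06), and the first slide gave -1.82 and the second -2.13. The Cy3 signal of the reference was dim on this probe, at 46 to 71 and well above background on 6 of the 8 arrays, and the Cy5 signal ranged from 120 to 1187. The Cy5 channel alone gave -2.40. It was taken after loess and after quantile normalization of the mean brightness of both channels. The reference therefore still entered through the normalization. In the rescue arrays Elf5 stood at 1.27 with W391D Mtdh and at 1.53 with wild-type Mtdh, between the knockdown and the vector values.

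Elf3 differed the other way. Its log2 ratio was 0.95, 0.92 and 0.93 on the knockdown arrays, against 0.16, 0.30 and 0.27 on the vector arrays, with no overlap. The difference was 0.69 ± 0.05 (SE, n = 3 each; adjusted p = 1.17e-05), and the slides gave 0.79 (first) and 0.64 (second). Both rescue arrays, with 0.86 for W391D and 0.88 for wild-type Mtdh, lay near the knockdown values and above the vector values.

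The promoters of Elf5 and Elf3 are shown because these ETS factors moved most in opposite directions. Those of Esr1 and Prlr are shown because they hold the STAT motif of the prolactin pathway. Each is the 250 bases before an annotated start in RefSeq for GRCm38.p6, read on the gene's strand, and capitals mark motif matches. The array file headers name the older build mm9, so these positions are those of the RefSeq table. Elf5 has 2 starts, at chr2:103411848-103412097 and chr2:103423818-103424067 on the plus strand. Elf3 is on the minus strand at chr1:135258473-135258722. The second of 2 Esr1 starts is at chr10:4709908-4710157 and the second of 3 Prlr starts at chr15:10223656-10223905, both on the plus strand.
Elf5, first start: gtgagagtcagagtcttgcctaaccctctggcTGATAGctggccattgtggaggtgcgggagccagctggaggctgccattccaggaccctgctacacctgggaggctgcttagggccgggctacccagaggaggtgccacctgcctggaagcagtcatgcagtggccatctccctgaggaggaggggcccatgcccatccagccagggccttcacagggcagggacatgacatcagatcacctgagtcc
Elf5, second start: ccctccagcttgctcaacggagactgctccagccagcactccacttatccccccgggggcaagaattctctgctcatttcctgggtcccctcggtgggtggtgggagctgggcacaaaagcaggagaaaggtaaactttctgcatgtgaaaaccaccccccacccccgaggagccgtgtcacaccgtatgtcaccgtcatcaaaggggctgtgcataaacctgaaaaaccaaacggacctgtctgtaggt
Elf3: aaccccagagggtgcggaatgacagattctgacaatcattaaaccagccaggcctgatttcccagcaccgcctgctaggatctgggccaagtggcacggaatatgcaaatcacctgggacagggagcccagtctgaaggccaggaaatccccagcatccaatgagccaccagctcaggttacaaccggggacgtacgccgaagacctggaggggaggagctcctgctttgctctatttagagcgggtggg
Esr1, second start: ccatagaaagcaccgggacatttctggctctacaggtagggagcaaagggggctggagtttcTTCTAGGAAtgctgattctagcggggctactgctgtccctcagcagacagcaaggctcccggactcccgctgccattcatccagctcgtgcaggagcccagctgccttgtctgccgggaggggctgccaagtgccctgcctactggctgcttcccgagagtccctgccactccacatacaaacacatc
Prlr, second start: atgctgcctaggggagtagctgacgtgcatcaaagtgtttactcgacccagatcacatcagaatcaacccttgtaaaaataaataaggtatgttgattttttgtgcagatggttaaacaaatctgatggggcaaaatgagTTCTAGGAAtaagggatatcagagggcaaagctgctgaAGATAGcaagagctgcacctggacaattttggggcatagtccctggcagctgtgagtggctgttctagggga

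Motifs of the members' own families were searched on both strands of 32851 promoters of this length. The STAT motif TTCNNNGAA was in 2 of the 13 promoters found for 8 of the 10 members and in 7.02% of all promoters. The GATA motif, as AGATAA or AGATAG or TGATAA or TGATAG, was in 3 of the 13 and in 26.5% of all. The AP-2 motif GCCNNNGGC was in 2 of the 13 and 13.7% of all, and the ETS motif CCGGAA in 1 of the 13 and 12% of all. The palindromic oestrogen response element was in 0 of the 13 and 0.0639% of all. In the sequences above, the first Elf5 promoter holds a GATA match, the Esr1 promoter a STAT match, and the Prlr promoter a STAT and a GATA match. The second Elf5 promoter and the Elf3 promoter hold none of these letters. Ehf and Tfap2c were not among the promoters used here. A match describes the sequence and does not show binding.

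Ehf lies next to Elf5 on chromosome 2, where they are neighbours among protein-coding genes in that assembly, and its 3 probes did not give 1 answer. On the second brightest probe (A_52_P205877) the log2 ratio was 1.01, 1.13 and 0.97 on the knockdown arrays, against 1.58, 1.78 and 1.76 on the vector arrays, a difference of -0.67 ± 0.07 (SE; adjusted p = 7.95e-05). The third probe (A_52_P609918) had 0.79, 0.82 and 0.70 on the knockdown arrays, against 1.33, 1.42 and 1.31 on the vector arrays, a difference of -0.58 ± 0.05 (adjusted p = 4.12e-05). On both of these probes every knockdown array lay below every vector array. The reference was dim on them, with Cy3 well above background on 7 and 4 of the 8 arrays. On the brightest probe (A_52_P272429) the knockdown values of 0.34, 0.18 and 0.16 overlapped the vector values of 0.45, 0.31 and 0.26, and the difference of -0.11 ± 0.07 did not pass the test (adjusted p = 0.227). This probe was barely brighter than the second in the mean of both channels, at 7.38 against 7.37. Its Cy5 signal was 145 to 450 over the arrays, against 168 to 985 on the second probe and 132 to 692.5 on the third. The falls on the second and the third probe lost the call with the scanner software's own log ratios, which the authors' value table also holds (-0.49 with adjusted p = 0.286, and -0.60 with adjusted p = 0.365), and the Cy5 channel alone gave -1.07 for the second. The brightest probe gained the call with the slide as a block (adjusted p = 0.0433) and with Cy5 alone (-0.26, adjusted p = 0.0191).

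**Figure D2:**
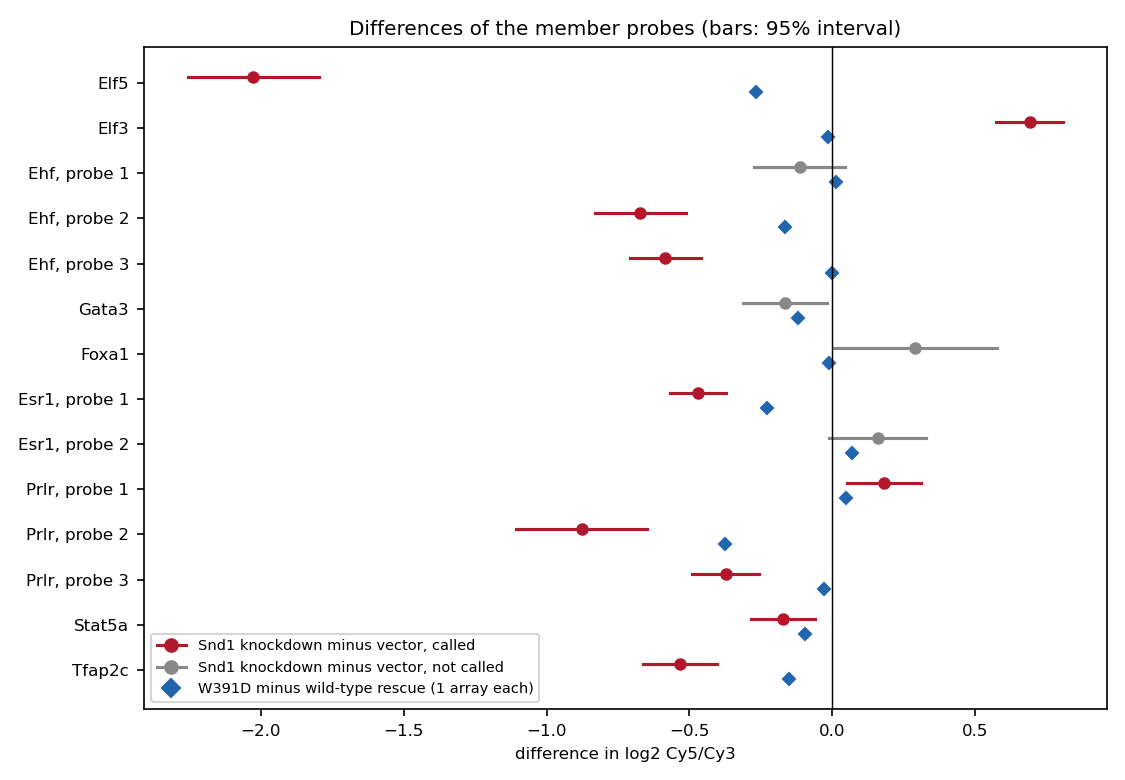
Differences in log2 Cy5/Cy3 of the 14 tested member probes; circles with bars are knockdown minus vector with the 95% interval (red, called; grey, not called), and diamonds are W391D minus wild-type rescue, 1 array each. Elf5 lies farthest left at -2.03 and Elf3 farthest right at 0.69, and all diamonds lie between -0.38 and 0.07.

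Of the luminal identity factors, neither Gata3 nor Foxa1 passed the test. Gata3 had log2 ratios of 0.89, 1.02 and 1.08 on the knockdown arrays, against 1.104, 1.14 and 1.24 on the vector arrays. The groups did not overlap, but the highest knockdown value was close to the lowest vector value. The difference was -0.17 ± 0.06 (SE; 95% interval -0.31 to -0.02; adjusted p = 0.0672), and it passed with the replicate number as a block (adjusted p = 0.0169), with the slide as a block (0.0175), with array weights (0.0321) and with median centring in place of loess (-0.31, adjusted p = 0.00224). It also passed without knockdown replicate 3 (adjusted p = 0.0476).

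Foxa1 had 0.81, 1.28 and 1.27 on the knockdown arrays, against 0.71, 0.94 and 0.84 on the vector arrays. The first knockdown array lay within the vector values and the other two above them. The difference of 0.29 ± 0.12 (SE; 95% interval 0.0049 to 0.58; adjusted p = 0.0927) was 0.10 on the first slide, which held the first knockdown and first vector array, and 0.39 on the second. It passed in 9 of 20 alternative fits, among them the replicate number as a block (adjusted p = 0.00702), the slide as a block (0.0042), the second slide alone (0.000845) and the fit without knockdown replicate 1 (0.44, adjusted p = 0.00172).

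Tfap2c fell. Its log2 ratio was 1.34, 1.39 and 1.32 on the knockdown arrays, against 1.89, 1.80 and 1.97 on the vector arrays. The groups were well apart. The difference was -0.53 ± 0.06 (SE; adjusted p = 8.51e-05), and the slides gave -0.55 (first) and -0.53 (second). Both rescue arrays, at 1.75 with W391D and 1.90 with wild-type Mtdh, stood above the knockdown values.

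Esr1 was measured by 2 probes, 1 of which was printed in 10 spots an array. On that probe (A_52_P237077) the log2 ratio was -1.72, -1.72 and -1.67 on the knockdown arrays, against -1.23, -1.25 and -1.22 on the vector arrays. The groups were narrow and far apart, and the difference was -0.47 ± 0.04 (SE; adjusted p = 3.8e-05). Single spots not marked as outliers ran from -1.93 to -1.35 on the knockdown arrays, against -1.38 to -1.06 on the vector arrays, so single spots overlapped at the edge although array means did not. Spots of 1 array share its RNA and are not replicates. The Cy5 signal was low, with an array mean down to 88.7 against a local background of 61.65 to 72.35, and 10, 9 and 7 of the 10 spots were well above background on the 3 knockdown arrays and all 10 on every vector array. The scanner software's log ratios, which subtract that background, gave -1.53 (adjusted p = 0.000899). The second probe (A_51_P474658) had 0.26, -0.03 and 0.18 on the knockdown arrays, 2 of them well above background, and -0.03, 0.01 and -0.04 on the vector arrays, and did not pass the test (0.16 ± 0.07, adjusted p = 0.12). It passed without knockdown replicate 2 (0.24, adjusted p = 0.0118) and with median centring (0.26, adjusted p = 0.0346). In the rescue line the first probe stood higher, at -0.40 with W391D and -0.17 with wild-type Mtdh.

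**Figure D3:**
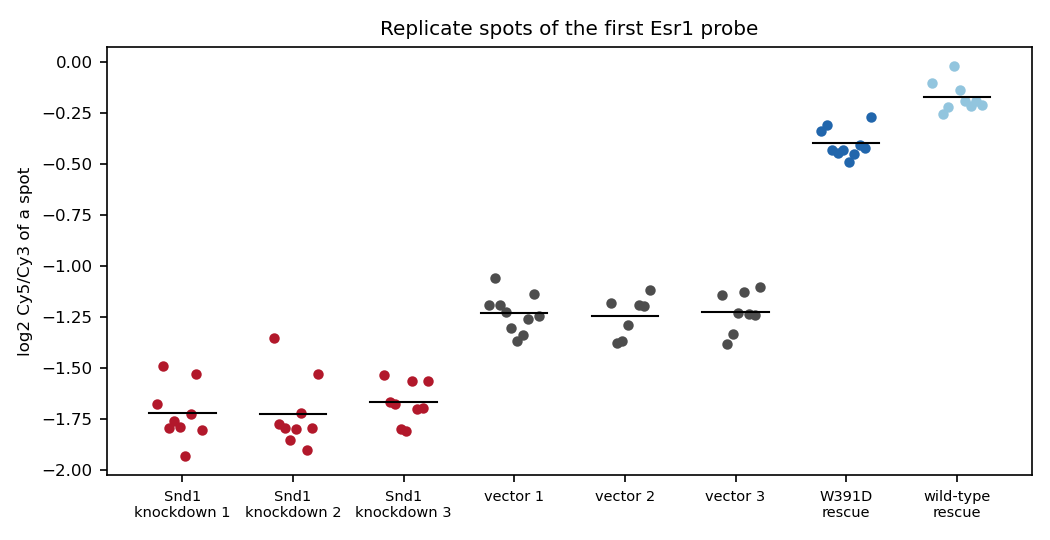
Log2 Cy5/Cy3 of the single spots of the Esr1 probe that is printed 10 times an array, without spots marked as outliers; 1 point is 1 spot and bars are array means. The knockdown arrays lie at -1.72, -1.72 and -1.67, the vector arrays at -1.23, -1.25 and -1.22, and the rescue arrays at -0.40 (W391D) and -0.17 (wild-type).

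Pgr was not well above background on any array in either channel. Its Cy5 signal was 71 to 112 and its local background 60 to 74, so no difference is given for it.

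Prlr, the prolactin receptor, also gave different answers by probe. The brightest probe (A_52_P458279) had log2 ratios of -0.09, 0.08 and -0.0047 on the knockdown arrays, against -0.14, -0.20 and -0.22 on the vector arrays, and rose by 0.18 ± 0.06 (SE; adjusted p = 0.0301). The second probe (A_52_P602987) had 0.38, 0.23 and 0.32 on the knockdown arrays, 2 of them well above background, and 0.95, 1.35 and 1.27 on the vector arrays. It fell by 0.88 on the log2 scale (SE 0.10; adjusted p = 0.000142). The third probe (A_51_P264673) had 0.06, -0.01 and 0.07 on the knockdown arrays, against 0.38, 0.48 and 0.37 on the vector arrays, a difference of -0.37 ± 0.05 (adjusted p = 0.000423). On none of the 3 probes did the groups overlap, and the brightest alone was higher in the knockdown. Cy3 was well above background on all 8 arrays for the brightest probe, and on 5 and 6 of them for the others.

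That rise of the brightest Prlr probe was lost in 8 of 20 alternative fits. Without knockdown replicate 2 or 3, or without vector replicate 2 or 3, the adjusted p was 0.109, 0.0762, 0.087 and 0.0981, in that order. With Cy5 alone and with median centring the difference was 0.05, and with the scanner software's log ratios it was 0.13 (adjusted p = 0.145). The falls of the second and the third probe kept an adjusted p under 0.05 in all 19 and all 20 fits that tested them, and the scanner software's log ratios gave -2.32 and -1.54 for them. The rescue arrays had 2.11 with W391D and 2.49 with wild-type Mtdh on the second probe, above each vector array, and -0.20 and -0.25 on the brightest.

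Stat5a, which prolactin signalling activates, had -0.39, -0.45 and -0.38 on the knockdown arrays, against -0.28, -0.18 and -0.25 on the vector arrays. The groups did not overlap and lay close together. The difference was -0.17 ± 0.05 (SE; adjusted p = 0.0199), a fall that did not pass with Cy5 alone (adjusted p = 0.175), nor when knockdown replicate 2 (0.0788), vector replicate 2 (0.0786) or vector replicate 3 (0.0539) was left out. Its chromosome 11 neighbours differed in direction: Stat3 rose by 0.19 (adjusted p = 0.0117), and Stat5b gave -0.99 on its brightest probe (adjusted p = 7.04e-06) and 0.11 on another, which did not pass (adjusted p = 0.303).

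**Figure D4:**
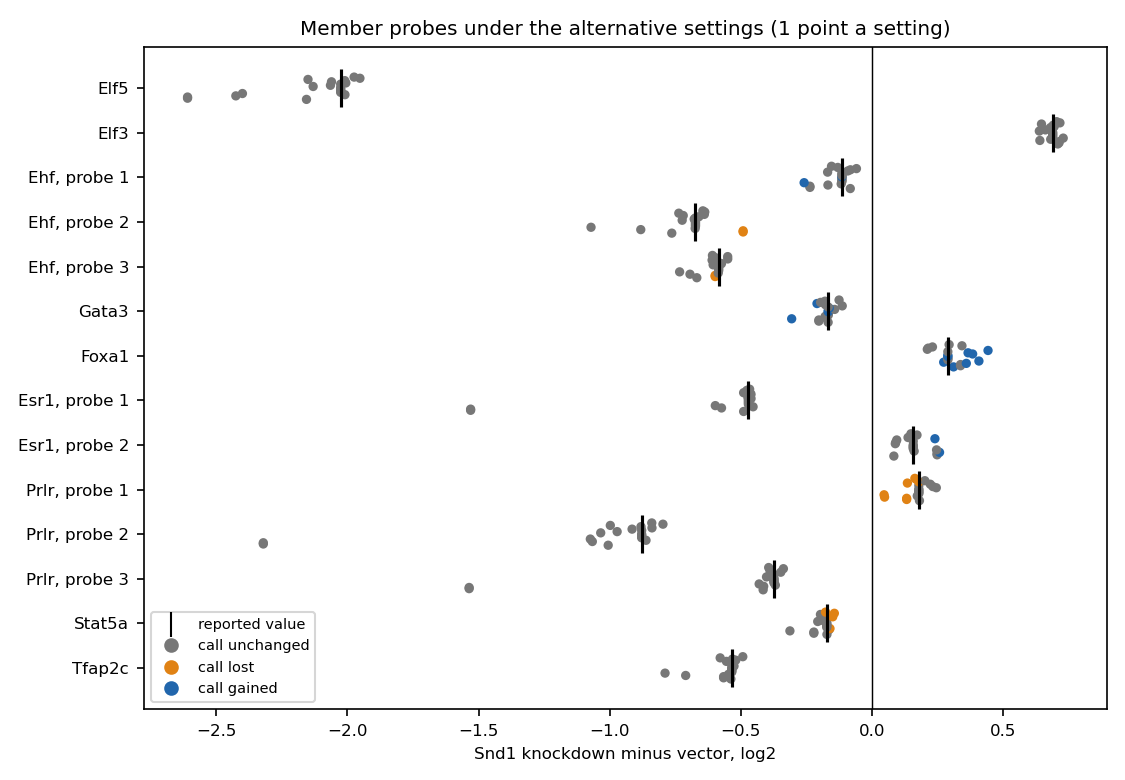
Knockdown minus vector difference in log2 Cy5/Cy3 of the 14 tested member probes under each alternative fit; 1 point is 1 fit, the black bar is the reported value, and colour marks fits in which a call was lost (orange) or gained (blue). Elf5 ranged from -2.61 to -1.95 and Elf3 from 0.64 to 0.73, and no point of these 2 genes changed its call.

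The genes around these factors were counted in 4 lists, each gene by its brightest probe. In prolactin, JAK2 and STAT5 signalling and its feedback, 7 of 19 tested genes rose and 8 fell, with a median of 0.03. The STAT5-induced inhibitors did not move as 1 group: Cish rose by 0.91 and Socs1 by 0.89 (adjusted p = 4.05e-06), whereas Socs2 gave -0.37 (adjusted p = 0.00104), a fall. Id2, a helix-loop-helix inhibitor needed for alveolar growth, rose by 2.31, and its other probe gave 2.01. Grb2, an adaptor of receptor signalling, gave -0.96, a fall. Jak2 did not pass the test (-0.12, adjusted p = 0.231).

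Among milk protein and alveolar genes 4 of 17 rose and 5 fell, with a median of 0.00. Csn3, the kappa casein, fell (-0.74, adjusted p = 0.00176), as did Lcn2, a lipocalin (-0.85), and Cd14, a lipopolysaccharide co-receptor (-0.47). The reference was dim on the Csn3 probe, with Cy3 well above background on 2 of the 8 arrays. Cy5 was well above it on all 3 knockdown and all 3 vector arrays. Plet1, a surface protein of luminal progenitors, rose by 1.18 (1.75 on its other probe), and Xdh, an enzyme of the milk fat globule, by 0.41 (0.26 on its other probe). Csn2, Wap and Lalba, which encode other main milk proteins, did not pass the test, with 0.03, 0.06 and 0.00. Csn2 was near background, well above it in Cy5 on 1 of 3 knockdown and 2 of 3 vector arrays. Of other casein genes, Csn1s2b fell (-0.34, adjusted p = 0.000931) and Csn1s1 did not pass (-0.06, adjusted p = 0.527).

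Among partners and responsive genes of the oestrogen and progesterone receptors 10 of 29 rose and 7 fell, with a median of 0.07. Tbx3, a T-box factor of hormone-sensing cells, rose by 3.82 (adjusted p = 1.81e-08) and Xbp1 by 1.03. Areg, the growth factor downstream of oestrogen, rose by 0.34. Greb1, a classic oestrogen target counted among the falls, was not well above background on any knockdown array, so no size is given for it. The coactivator Ncoa3 rose by 0.61 on its brightest probe and did not pass on its others (0.09 and 0.05), and Zfpm1, a GATA cofactor, rose by 0.46.

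Among 30 family relatives of the members 5 rose, 6 fell and 19 did not pass, with a median of 0.03. Gata2, a relative of Gata3, had log2 ratios of 0.38, 0.55 and 0.50 on the knockdown arrays, against -2.10, -2.20 and -2.30 on the vector arrays, a rise of 2.68 (2.15 on its other probe). Esrra, an orphan receptor related to Esr1, rose by 1.39, and Stat2, of interferon signalling, gave -0.95, a fall. Over all 17229 named genes 26% rose and 25.6% fell, and the median was 0.02.

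**Figure D5:**
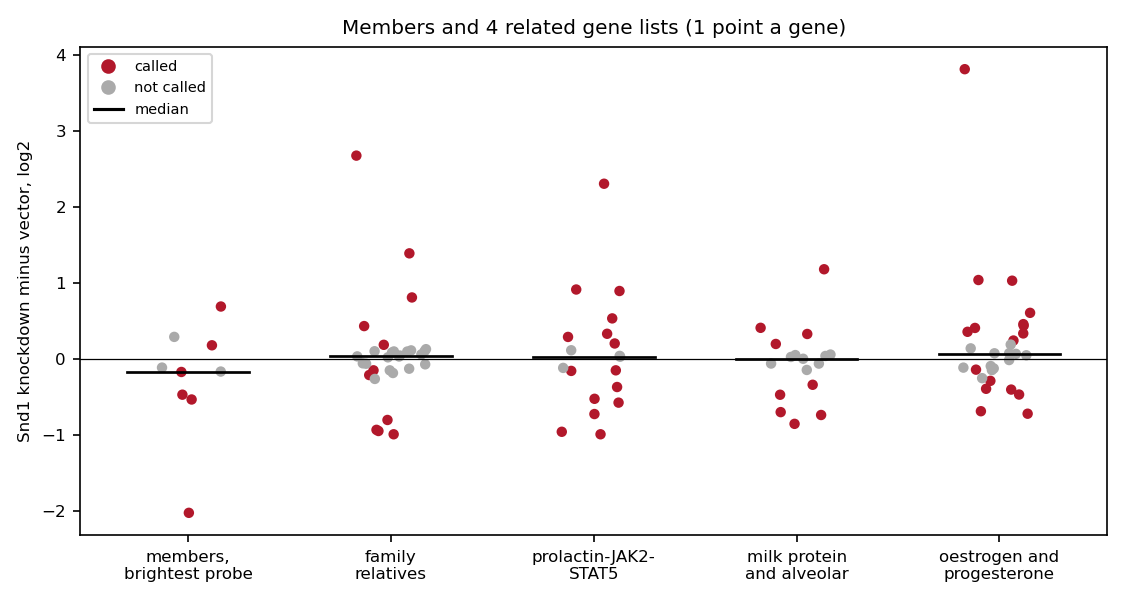
Knockdown minus vector difference in log2 Cy5/Cy3, 1 point a gene by its brightest probe, for the members and 4 related lists; red points were called, grey points were not, and bars are medians. The medians of the 4 lists lie between 0.00 and 0.07, that of the members at -0.17, and Tbx3 (3.82), Gata2 (2.68) and Id2 (2.31) stand highest.

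Markers of other cell types differed between the same groups. Of 11 fibroblast markers tested 7 rose and 0 fell, with Postn (2.72), Pdgfrb (2.44) and Col1a1 (2.39) highest, though the other Col1a1 probes gave 0.72 and 0.20. The mean log2 ratio of all 12 fibroblast markers on the array, with the untested Fap, was -2.70 to -2.64 on the knockdown arrays, against -3.53 to -3.47 on the vector arrays. Of 8 adipocyte markers 5 rose and 0 fell, with mean ratios of 0.15 to 0.20 on the knockdown arrays, against -0.44 to -0.34 on the vector arrays. Of 12 basal markers tested 2 rose and 5 fell. The mean ratio of all 14 on the array, with the untested Oxtr and Lgr5, was -0.58 to -0.51 on the knockdown arrays, against -0.40 to -0.26 on the vector arrays. The leukocyte marker Ptprc was far below the reference everywhere, at -6.06 to -5.76 on the knockdown arrays, against -6.20 to -5.95 on the vector arrays, and 2 of 10 leukocyte markers rose and 1 fell. Of 7 endothelial markers 2 rose and 2 fell. The part of these markers' changes in the members' differences was not tested.

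The 5 named genes with a pattern over the 8 arrays most like that of Elf5 were Mgp, Pdgfrl, Mia, Ifi27l2a and Irf7, by the root mean square difference of log2 ratios centred on each probe's mean. It was 0.0806 for Mgp, 0.114 for Pdgfrl, 0.180 for Mia, 0.188 for Ifi27l2a and 0.212 for Irf7, and the median of 17281 candidates was 0.894. The 8 arrays include the 6 of the knockdown comparison, so these genes also differ there by construction. Among the other members Tfap2c came nearest, at 0.676.

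The W391D mutation in Mtdh, which weakens its binding to Snd1, was compared with wild-type Mtdh in the rescued line on 1 array each, so there is no replicate check and no test. None of the 14 member probes that were well above background there differed by 1.5-fold, the size used for single arrays, and 0.179% of 35209 probes did, 0.0653% higher and 0.114% lower. The differences ran from -0.38 to 0.07 with a median of -0.06. The second Prlr probe had the widest difference, -0.38 (2.11 with W391D, 2.49 with wild-type), followed by Elf5 at -0.27 and the Esr1 probe of 10 spots at -0.23, whose spots ran from -0.49 to -0.27 with W391D and from -0.25 to -0.02 with wild-type Mtdh.

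Of the 14 probes 11 were lower with W391D, 78.6%, as were 50.7% of all 35206 probes that could be set side by side. The count was 9 with the scanner software's log ratios, 12 with median centring and 11 with Cy5 alone. Ehf, Esr1 and Prlr enter these counts with more than 1 probe each. Of the 11 as reported, the third Ehf probe (-0.0021) and Foxa1 (-0.013) were near 0. Elf3, with -0.02, was near 0 as well, while it was 0.69 higher in the Snd1 knockdown. Mtdh itself stood at -0.10 with W391D and 0.42 with wild-type Mtdh on its brightest probe, a difference of -0.52. Its other probe had -0.16 and 0.01, a difference of -0.18. The part of the Mtdh level in the members' differences was not tested. The rescue arrays were on different slides, so slide and form of Mtdh cannot be told apart.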

How the data were processed

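RNA of 8 samples was measured on 2-colour Agilent arrays, and groups were taken from the labels. Per the file headers, the deposited spot intensities are median pixel values from Agilent Feature Extraction 11.0.1.1, not normalized, whereas version 9.5.3.1 is given in the submitters' processing notes. Per the file headers, the deposited log10 ratios of Cy5 to Cy3 were background-subtracted and dye-normalized by that software. A deposited value table of the authors holds log2 ratios, which are those log10 ratios on another base for most probes (93.77% to 97.91% equal within 0.01, r of 0.9878 to 1 with each array's own values, slope 1 to 1.001), with column medians of 0.0256 to 0.146 and no centring.

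Background was corrected by normexp (offset 50) and each array was normalized by loess, in limma 3.58.1 (R 4.3.3). Control spots and outlier spots (77 to 142 an array) had weight 0. No spot was saturated. Spots of a probe were averaged. Probes were named by unversioned accession through a RefSeq table of GRCm38.p6 (27668 probes, 18883 genes, with 13506 probes unnamed), which was used for names and neighbours. A probe needed a Cy5 signal flagged well above background on 3 or more of the 6 knockdown and vector arrays, and these were fitted with lmFit and eBayes, and p-values were adjusted by Benjamini-Hochberg over 33564 probes. The fit was checked on simulated data. The rescue arrays had no test.

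The members and lists were chosen with earlier results of these data known. All member probes found by RefSeq accession are reported. From each list up to 4 called genes with the smallest p are named, and the 5 genes most like Elf5. Other genes named to describe a list or a marker group were chosen after their values were seen.

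The labels number the replicates alike in both groups. After removing group means, arrays of the same number correlated at 0.57, 0.308 and 0.312 over probes, and arrays of different numbers at -0.48 to 0.369. As every same-number value was above 0.1, the number was treated as pairing the arrays, in an alternative fit. It follows the slides, and the highest value between different numbers was above those of replicates 2 and 3. The first slide held replicate 1 of both groups and the second held replicates 2 and 3. Alternatives were other background corrections, normalizations, filters, gene summaries, blocks, variance models and thresholds, and each array left out.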

Additional observations from a re-analysis of the deposited data

How the results depend on the processing

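Among the knockdown differences of single probes under alternative settings, 601 kept their direction and side of the threshold, 19 gained the call, 16 lost it and 2 changed sign. Both sign changes were of the second Mtdh probe, never called, with -0.063 under median centring and -0.0030 without vector replicate 1, and -0.0030 to 0.078 over the arrays left out in turn. Elf5, Elf3, Tfap2c, the Esr1 probe of 10 spots and the second and the third Prlr probe kept their calls. Their adjusted p was under 0.05 in each fit that tested them. With the reported values, a fold of at least 1.5 ends the calls of Tfap2c, that Esr1 probe and the third Prlr probe. For these Esr1 and Prlr probes the size depends on the processing, as the scanner software's log ratios gave -1.53 and -1.54. The number of member probes called higher, 2 as reported, was 1 with the scanner software's log ratios, with the series' value table, with the mean of a gene's probes, with an adjusted p under 0.01 and with a fold of at least 1.5, and 1 to 3 with an array left out. The number called lower, 8 as reported, was 4 with the brightest probe of each gene and 3 with a fold of at least 1.5, and 7 to 9 with an array left out. That fold left 2041 of all probes higher and 1886 lower, against 7918 and 7415 as reported, and leaving out an array gave 6823 to 7830 and 6441 to 7362. With the replicate number as a block, 9040 probes were higher and 8112 lower, 3 and 9 of them members, and the pairing changed no member's call but those of Gata3 and Foxa1. A stricter threshold or 1 feature a gene lowers a count by construction, and for the other changes the cause was not tested. Of the rescue differences, 16 moved by more than the pooled SD of the probe within the knockdown and vector groups and 40 did not. Signal near background limits Pgr, Esr1, the second and the third probe of Prlr, and all probes of Ehf. It also limits the size of the Elf5 fall, as the Cy5 signal was 120, 181 and 159 on the knockdown arrays.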
